A study of Mus musculus with 8 samples.

Results

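The genes described are those of the cytosolic ribosomal proteins, the proteins that build the ribosomes of the cytoplasm together with ribosomal RNA. Members were taken from the probe annotation by name: every probe that names exactly 1 gene, with a symbol that starts with Rpl or Rps and goes on with a digit, a, p0, p1 or p2. S6 kinases and pseudogenes were left out. The rule gave 57 of the 14510 genes named by single-gene probes, and 125 of the 31769 probes on the array. These were 44 genes of the large subunit (Rpl) and 13 of the small subunit (Rps). Among them were 5 paralogue forms, Rpl3l, Rpl7l1, Rpl22l1, Rpl39l and Rps27l. The rule itself reads names and no measured value.

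RNA came from C2C12, an established mouse myoblast line of C3H origin that fuses into myotubes when serum is lowered. A retrovirus had been used to select stable cells, with 4 control samples carrying Neo and 4 carrying HDAC4, a class IIa histone deacetylase. All 8 samples were taken after 4 days in 2% horse serum, started at 90% confluence. Cy5 marked the cells' RNA on every array, primed with oligo dT, and a murine reference RNA in Cy3 shared the array with it. The samples are stably selected cells of 1 line, and nothing names separate cultures. A p-value here therefore measures sample-to-sample spread alone, and that spread could be technical.

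Every value is a log2 ratio, most likely of cells over reference, minus the median of its array. A value of 0 therefore means the same ratio as the median probe, not the same amount of RNA as in the reference. A change common to all transcripts would not be seen. A bulk ratio also cannot tell fewer cells of a type from less RNA per cell. Ratios of different genes are not abundances, since the reference level of each gene is its own denominator.

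The large subunit holds the catalytic site for peptide bond formation and the tunnel through which the new chain leaves, and the small subunit decodes the messenger RNA. Ribosomal proteins are made in near-equal numbers, and excess copies are degraded. Their messenger RNAs are abundant, and many begin with a run of pyrimidines, the 5′ terminal oligopyrimidine (TOP) motif, through which mTORC1 signalling sets their translation. An array of RNA levels does not measure that translation. Muscle growth and wasting are known to go with changes in ribosome number.

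The first bases of 8 members are shown because the TOP motif is the sequence feature this family is known for. RefSeq starts on assembly GRCm38.p6 were found for 47 of the 57 genes, with 58 starts. Each line gives 10 bases before the start and 20 from it, 5′ to 3′ on the transcript's strand, with the unbroken run of C and T from the first transcribed base in capitals. Rpl15 lies at chr14:18270967-18270996 on the minus strand, Rpl28 at chr7:4792955-4792984 on the plus strand, Rpl35 at chr2:39005112-39005141 on the minus strand and Rpl38 at chr11:114668570-114668599 on the plus strand. Rplp2 lies at chr7:141447641-141447670 on the plus strand and Rps6 at chr4:86857348-86857377 on the minus strand. Rpl39, at chrX:37085203-37085232 on the minus strand, and its paralogue Rpl39l, at chr16:10170218-10170247 on the plus strand, are shown because the paralogue had the largest difference between the groups.
Rpl15: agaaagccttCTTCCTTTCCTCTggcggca
Rpl28: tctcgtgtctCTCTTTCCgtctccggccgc
Rpl35: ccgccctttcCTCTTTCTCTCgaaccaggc
Rpl38: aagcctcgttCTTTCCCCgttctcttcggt
Rplp2: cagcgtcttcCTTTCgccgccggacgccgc
Rps6: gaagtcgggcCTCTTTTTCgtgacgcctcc
Rpl39: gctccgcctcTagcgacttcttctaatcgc
Rpl39l: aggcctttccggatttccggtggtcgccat

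The motif was searched on the transcript's strand only, as a C at the first base followed by at least 4 letters that are each C or T. It stood at 10 of the 58 member starts (17.2%), against 2.51% of all 32851 starts in the table. With the first base allowed to lie up to 3 bases to either side, the shares were 34.5% of member starts (20 of 58) and 11.5% of all starts. Rpl15 had the longest of the runs printed, 13 pyrimidines, and Rplp2 the shortest of those with the motif, 5. Rpl39 begins with a single T before a purine and Rpl39l with a G, so neither holds the motif at the listed start. A start annotated a few bases away would give another answer, and no match says only that these letters are not at that base.

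Of the 125 probes, 116 had a value on all 8 arrays, 7 on some and 2 on none. A gene's value was the mean over its probes, of which 20 genes had 1 and 37 had several. With at least 3 values in each group required, 55 genes were tested, 42 large-subunit and 13 small-subunit. Rpl5, which binds the 5S ribosomal RNA, had no value on any array. Rplp0, the base of the stalk that recruits elongation factors, had 1 value, -0.49 on HDAC4 replicate 1. Neither could be tested. Another 22 probes with several gene entries under 1 ribosomal protein symbol, 4 large-subunit and 18 small-subunit, fall outside the rule. The small subunit is therefore thinly covered.

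The arrays carried values for 17014 to 22193 probes, and the mean number was 20652 ± 1325 in Neo and 17844 ± 699 in HDAC4 (SD, n = 4 each). No probe is named for Hdac4, so the group labels were not checked against the gene carried by the virus. Markers of differentiated myotubes were present. All 7 that a single-gene probe names were tested, and 5 were lower and 2 higher in HDAC4. Their median change was -0.17 and 0 were called, where 0.115% of all features were. Acta1, Myh3 and Myh8, also planned, have no such probe, nor do Ccnb1 and Alb of the lists below. Ckm, the muscle creatine kinase, lay between 9.03 and 9.82 on the 8 arrays. Actn2, a Z-disc actinin, lay between 7.47 and 7.78 in Neo and at 6.45, 0.67, 6.99 and 6.65 on HDAC4 replicates 1 to 4, a change of -2.44 ± 1.21 (SE; adjusted p = 0.740 in limma). The groups did not overlap, and HDAC4 replicate 2 was far below the rest. Tnnt3, a fast troponin, had a change of -0.99 ± 0.58 (SE; adjusted p = 0.801). The part of these markers in the values of the ribosomal protein genes was not tested. Of 9 markers of proliferating or undifferentiated myoblasts with a single-gene probe 8 were tested, and their median level was -3.42 in Neo and -3.28 in HDAC4. The labels name murine liver as the reference, but the few values of liver genes do not show it. Serpina1a stood between 0.58 and 1.04 on 4 arrays, Ttr at 0.46 on 1, and Apoa1 at -0.01 and 0.37 on 2, none of them far below the median probe. Fgb and Cyp2e1 had no value, and none of the 5 could be tested. Of other cell types, 1 adipocyte marker (Pparg) and 1 osteoblast marker (Alpl) were tested. Adipoq, Plin1 and Sp7 had no value. Fabp4 had values on 3 Neo arrays alone, -1.15, -1.25 and -1.12 on replicates 1, 3 and 4, and Lep had values on 2 arrays of each group.

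Ribosomal protein genes sat near the middle of each array. The median over members was -0.15, 0.09, 0.09 and -0.04 on Neo replicates 1 to 4 and -0.06, 0.0045, 0.02 and 0.03 on HDAC4 replicates 1 to 4. Neo replicate 1 was the lowest array, and the Neo values enclosed the HDAC4 values. The group means were -0.0053 ± 0.12 for Neo and -0.0026 ± 0.04 for HDAC4 (SD, n = 4 each). Large-subunit genes had a median of -0.02 ± 0.14 in Neo and -0.0032 ± 0.05 in HDAC4 (SD, n = 4 each). Small-subunit genes had one of 0.01 ± 0.12 in Neo and 0.04 ± 0.04 in HDAC4 (SD, n = 4 each). The differences between these medians, between subunits and between groups, were smaller than the SD over the Neo arrays.

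**Figure D1:**
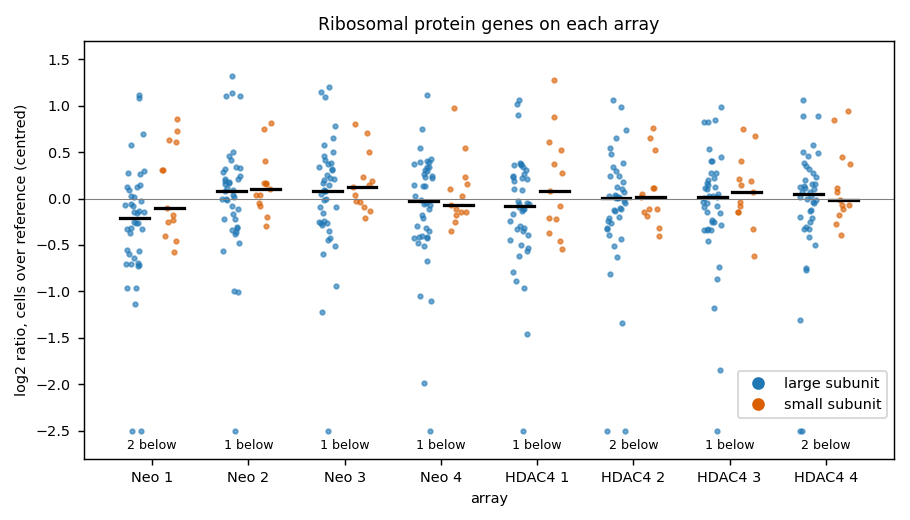
Centred log2 ratio (cells over reference) of each tested ribosomal protein gene on each array, with large-subunit genes in blue, small-subunit genes in orange and black lines at their medians. Values lower than the lowest row of points are placed on that row and counted; the medians lie close to 0 on all 8 arrays, lowest on Neo replicate 1.

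Of the 55 members, 52 had a mean level within 1 log2 unit of 0, against 70.6% of all features. Rpl39, a small basic protein in the wall of the exit tunnel, had the highest mean, 0.99. Rpl17, which also lines the tunnel, followed at 0.95 and Rpl35, at the tunnel's mouth, at 0.92. The 8 arrays of these 3 genes overlapped, so their order is not resolved. Rpl39l was the lowest at -3.97, then Rplp1 of the stalk at -2.15 and Rpl22l1 at -1.10.

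Whether HDAC4 goes with a shift in the ribosomal protein genes as a family is the question of the main comparison. None of the 55 tested members passed an adjusted p of 0.05 in limma, where 0.115% of the 14750 features did. At an unadjusted p under 0.05, 1 member was lower, Rpl39l, and 0 were higher, against 4.57% of features lower and 7.34% in either direction. The signs were mixed, with 29 members higher and 26 lower in HDAC4. The median log2 change, HDAC4 minus Neo, was 0.01, with an interquartile range of -0.09 to 0.09. Over all features the median was -0.0028 and the interquartile range -0.15 to 0.14. The sign of the members' median was not stable. It was -0.05 without Neo replicate 1, -0.0026 with quantile normalization and -0.0070 when probes were not averaged, and leaving out other arrays gave values up to 0.03.

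The subunits were then set side by side. The median change was 0.01 for the 42 large-subunit genes, with 22 higher and 20 lower, and 0.0051 for the 13 small-subunit genes, with 7 higher and 6 lower. The difference of these medians was 0.0064. Leaving out each array in turn moved this difference between -0.04 and 0.06.

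The absence of calls came with narrow intervals. The 95% interval of the change stayed within 1.5-fold in either direction for 47 of the 55 members (85.5%), against 51.4% of all features, and within 2-fold for 53 (96.4%), against 87.6%. All 13 small-subunit genes and 34 of the 42 large-subunit genes had intervals within 1.5-fold. The 8 that did not were Rpl24, Rpl36, Rpl38, Rpl39l, Rpl3l, Rpl4, Rpl41 and Rplp1. The median within-group SD was 0.16 for members and 0.26 for all features. Averaging differs between the members and the features at large. Of the 57 members 37 had several probes. Over the array, 18976 single-gene probes named 14510 genes, and other probes stayed features of their own. The part of averaging in these contrasts was not tested. Among the 50 canonical genes tested, changes ran from -0.35 for Rpl41 to 0.29 for Rpl36, and 49 lay within 0.3, against 80.0% of features. Their adjusted p in limma lay between 0.724 and 0.998. In simulated data with independent noise and the spread of all features, the same fit recovered 52.5% of changes of 1 log2 unit and 0% of changes of 0.5. With this number of arrays, a change of 0.5 or less would thus seldom be called among features of that spread. The members, with their smaller spread, were not simulated apart, and correlation between same-numbered arrays was left out.

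**Figure D2:**
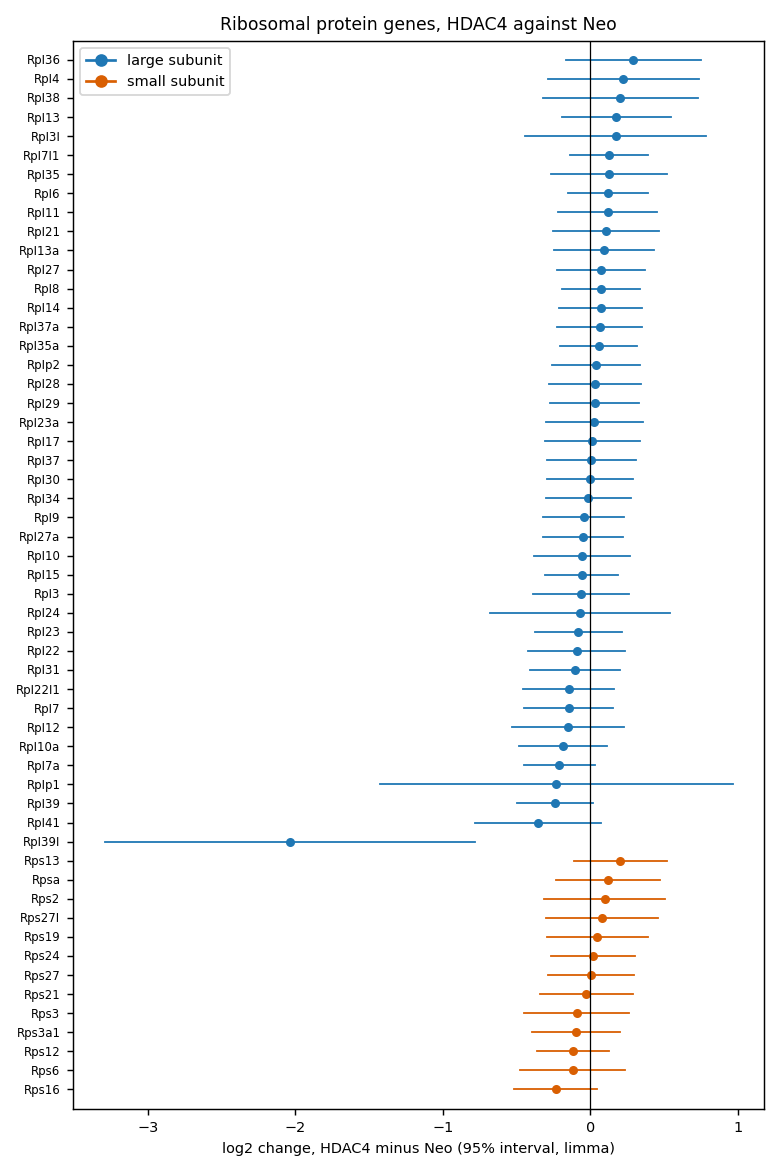
Log2 change, HDAC4 minus Neo, of the 55 tested ribosomal protein genes, with 95% intervals from limma, large-subunit genes in blue and small-subunit genes in orange. Besides Rpl39l at -2.04, the points lie between -0.35 and 0.29.

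Rpl39l, the form of Rpl39 known from male germ cells, had the largest difference of the family. Its log2 ratio was -3.23, -3.62, -2.99 and -1.98 on Neo replicates 1 to 4 and -3.31, -5.14, -5.40 and -6.12 on HDAC4 replicates 1 to 4. HDAC4 replicates 2 to 4 lay below every Neo array, while HDAC4 replicate 1 lay among them, so the groups overlapped. The change was -2.04 ± 0.56 (SE, 95% interval -3.29 to -0.78, n = 4 in each group), which did not pass in limma (adjusted p = 0.347). The exact two-sided permutation p was 0.0571. Without HDAC4 replicate 1 the change was -2.60 and passed in limma (adjusted p = 0.0369), in a fit that called 0.447% of features. Without both arrays numbered 1 it was -2.69 (adjusted p = 0.0294), the 1 member of 53 called, where 2.23% of features were. With a term for replicate 1 it did not pass (adjusted p = 0.142), nor with the replicate number as a block (adjusted p = 0.277). The gene rests on 1 probe, and its signal in the cells was far below that of the reference.

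The canonical Rpl39, by contrast, was high and tight in Neo. Its log2 ratio was 1.08, 1.11, 1.15 and 1.11 on Neo replicates 1 to 4 and 1.02, 0.74, 0.85 and 0.88 on HDAC4 replicates 1 to 4. Every HDAC4 array lay below every Neo array. The change was -0.24 ± 0.12 (SE; adjusted p = 0.724 in limma), and the exact permutation p was 0.0286, as small as 4 arrays against 4 can give. Its probes gave changes of -0.36 and -0.11.

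The groups did not overlap for 4 of the 55 members (7.27%), against 5.32% of all features. They were Rpl39, Rpl7a, Rps12 and Rps16, all lower in HDAC4, and the share is near the background. Rpl7a lay between -0.35 and -0.22 in Neo and between -0.54 and -0.45 in HDAC4, a change of -0.21 ± 0.11 (SE). Rps12 lay between -0.19 and -0.14 in Neo and between -0.32 and -0.21 in HDAC4, a change of -0.12 ± 0.11 (SE). Both genes are named for this count, after their values were seen. Rps16, whose tail reaches the site of the peptidyl transfer RNA, stood at -0.25, -0.30, -0.04 and -0.25 in Neo and at -0.37, -0.40, -0.62 and -0.39 in HDAC4. Its change was -0.23 ± 0.12 (SE; adjusted p = 0.762 in limma), and its probes disagreed, at -0.42 and -0.05.

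Several of the other large differences turned on 1 array. Rpl41, the smallest ribosomal protein, stood at 0.70, 1.32, 0.58 and 0.39 in Neo and at 0.38, 0.38, 0.45 and 0.35 in HDAC4. Neo replicate 2 was the high array, through 1 of the gene's probes, at 1.81. The change was -0.35 ± 0.19 (SE; adjusted p = 0.777 in limma), and -0.16 without that array.

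On the side of higher values, Rpl36 was at -0.97, -0.22 and -0.41 on Neo replicates 1, 2 and 4, close to 0 on Neo replicate 3, and at -0.32, -0.12, 0.0092 and -0.0082 on HDAC4 replicates 1 to 4. Neo replicate 1 was the low array, and the change of 0.29 ± 0.20 (SE; adjusted p = 0.860 in limma) was 0.10 without it. Rpl38, known for its part in translating Hox messenger RNAs, stood at -0.70 on Neo replicate 1 and between 0.21 and 0.43 on the other 7 arrays. Its change of 0.21 became -0.05 without Neo replicate 1. Rpl4, whose loop reaches the exit tunnel, had a change of 0.22 with no value on Neo replicate 2, and a range of 0.14 to 0.42 over the fits with 1 array left out. Rps13 had a change of 0.20 and Rpl13 one of 0.18, and without Neo replicate 1 these were 0.10 and 0.04.

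The paralogue forms other than Rpl39l had changes between -0.15 and 0.17. Rpl22l1 lay between -1.14 and -0.94 in Neo and between -1.34 and -0.88 in HDAC4, a change of -0.15 ± 0.14 (SE), beside -0.09 ± 0.15 (SE) for Rpl22. As for Rpl39l, HDAC4 replicates 2 to 4 lay below every Neo array, at -1.34, -1.18 and -1.30, and replicate 1 did not, at -0.88. Without both arrays numbered 1 the change was -0.28 for Rpl22l1 and -0.27 for Rpl22. Neither passed in limma (adjusted p = 0.196 and 0.186). Rpl7l1, a relative of Rpl7, had a change of 0.13 ± 0.12 (SE) and Rpl7 one of -0.15 ± 0.13 (SE), and in both the groups overlapped. Rps27l, known as a p53-inducible form, had a change of 0.08 ± 0.17 (SE) and Rps27 one of 0.0051 ± 0.13 (SE). No paralogue was tested against its canonical gene.

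Rpl3l is the form of Rpl3 known from heart and skeletal muscle. Of its 3 probes 1 had no value, 1 had values on 2 arrays and 1 on 7 arrays, and 6 of those 7 fell at the inferred lower limit of the reference signal, 10 units. There the value follows the signal of the cells alone. Before centring, 10 times the ratio was 11, 10, 23 and 12.3 on Neo replicates 1 to 4. On HDAC4 replicates 1, 3 and 4 it was 13, 18 and 14. The 12.3 on Neo replicate 4 is the value not at the limit, so it does not give the signal of the cells in units. HDAC4 replicate 2 had no value. The change over the gene was 0.17 ± 0.27 (SE; adjusted p = 0.942 in limma), from 0.05 without Neo replicate 2 to 0.41 without Neo replicate 3. Rpl3 itself stood at -0.70, -0.57, -0.60 and -1.10 in Neo and at -0.79, -0.81, -0.86 and -0.77 in HDAC4, a change of -0.07 ± 0.14 (SE).

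**Figure D3:**
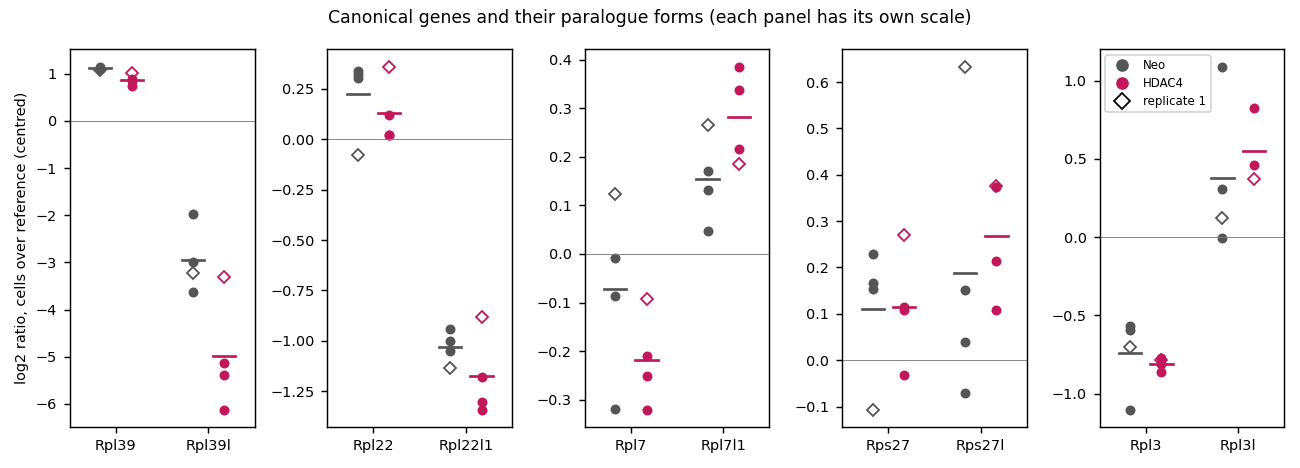
Centred log2 ratios of canonical ribosomal protein genes and their paralogue forms on each array, Neo in grey and HDAC4 in pink, with open diamonds for replicate 1 and bars at group means. Each panel has its own scale; the groups separate by about 2 log2 units for Rpl39l, where HDAC4 replicate 1 lies with the Neo arrays.

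Stalk proteins and members with known roles beyond the core were also read gene by gene. Rplp1 was the noisiest canonical gene, at -3.16, -0.99, -1.22 and -2.78 in Neo and -1.46, -2.69, -1.85 and -3.07 in HDAC4. High and low arrays occurred in both groups, and the change of -0.23 ± 0.53 (SE) went from -0.60 to 0.12 with 1 array left out. Its partner Rplp2 had a change of 0.04 ± 0.13 (SE). Rpl11, which with Rpl5 binds Mdm2 when ribosome assembly is disturbed, had a change of 0.12 ± 0.15 (SE), which was 0.0065 without Neo replicate 1 and 0.18 without HDAC4 replicate 1.

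Rps6, the substrate of the S6 kinases, stood at -0.40, 0.10, -0.02 and -0.17 in Neo and at -0.54, -0.11, -0.15 and -0.18 in HDAC4. The change was -0.12 ± 0.16 (SE), with the arrays numbered 1 lowest in both groups. It was -0.21 without Neo replicate 1 and -0.02 without HDAC4 replicate 1. Rpsa, also known as the laminin receptor precursor, was high in all samples, at 0.73, 0.75, 0.71 and 0.98 in Neo and 1.27, 0.76, 0.67 and 0.94 in HDAC4. Its change was 0.12 ± 0.16 (SE), and 0.0014 without HDAC4 replicate 1. Rps19, mutated in Diamond-Blackfan anaemia, had a change of 0.05 ± 0.15 (SE), Rps3 at the messenger RNA entry one of -0.09 ± 0.16 (SE), Rpl10, which joins late in assembly, one of -0.06 ± 0.14 (SE), and Rpl13a one of 0.09 ± 0.15 (SE). The Rpl10 value includes a probe measured on Neo replicate 4 alone, at 0.78, and the probes on all arrays gave -0.02 and 0.04. Adjusted p in limma for the members named by role, from Rplp1 to Rpl13a, was 0.931 or more.

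The changes were also read by start sequence. The 10 tested genes with the TOP motif at the listed start had changes between -0.12 and 0.21, with a median of 0.04. None was called, where 0.115% of all features were. The 35 tested genes whose listed starts lacked it had a median of -0.04. Of the genes printed above, Rps6 was the lowest of the 10 and Rpl38 the highest.

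Probes of the same gene were compared with each other. For 36 genes with at least 2 probes on all arrays, the median range between probes was 0.15 for the level and 0.17 for the change. Rpl17 had probes at 1.99 and 0.05, and the changes of these were -0.21 and -0.04. Its gene value also includes a probe with values on 3 Neo arrays alone, and with probes centred first its change was -0.11 in place of 0.01. Rpl29 had a probe at -1.41 beside 3 between -0.05 and 0.03. Rpl21 had 1 at 0.62 beside 5 between -0.78 and -0.67. The probe at 0.62 had a change of 0.36, from 0.31 to 0.49 in Neo and 0.68 to 0.89 in HDAC4. The other 5 had changes between -0.03 and 0.16. The 3 probes of Rps24 lay at 0.29, 0.71 and 1.12. The places of Rpl17 and Rpl21 in the order of levels thus rest on averages of unlike probes. Ribosomal protein genes have many near-identical processed copies in the mouse genome, and probe signal may include such copies.

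**Figure D4:**
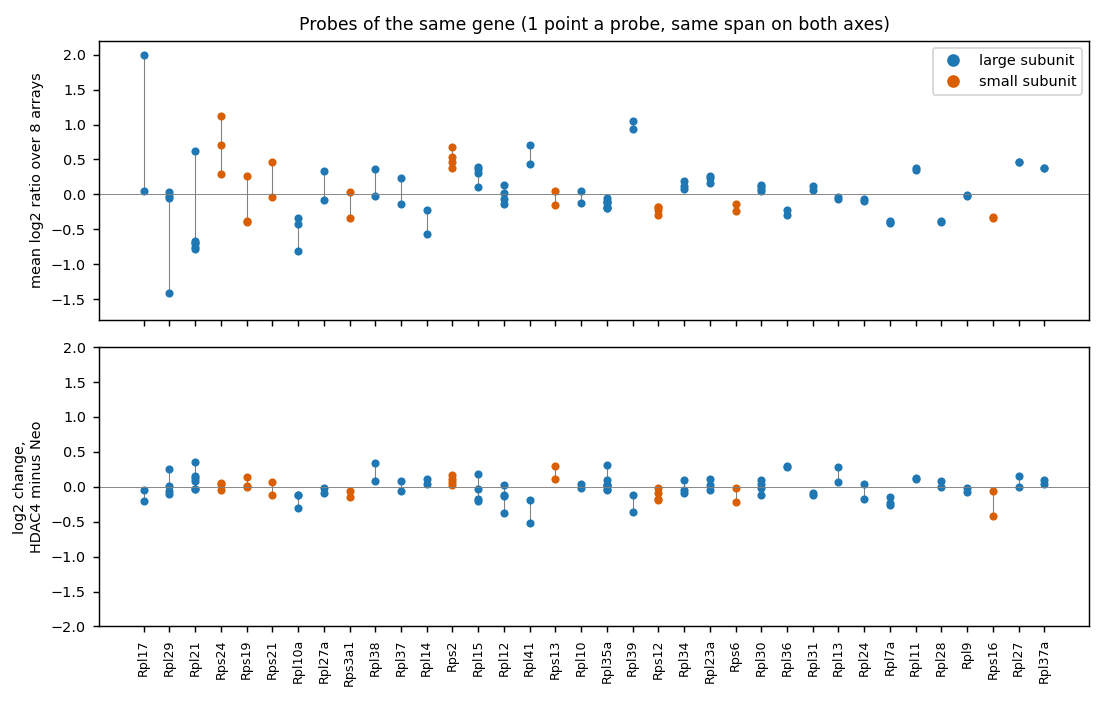
Mean log2 ratio over 8 arrays (top) and log2 change, HDAC4 minus Neo (bottom), of each probe with values on all arrays, for 36 ribosomal protein genes ordered by the range of their levels. Both axes span the same number of log2 units; Rpl17, Rpl29 and Rpl21 have probes more than 1 unit apart in level, while no gene has probes that far apart in change.

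The arrays numbered 1 differed from replicates 2 to 4 in both groups, in a limma fit with group and replicate 1 as terms. There 4 of 55 members passed (7.27%), 1 higher and 3 lower, against 20.3% of 14636 features (9.97% higher and 10.4% lower). Rps2, at the messenger RNA entry, was the 1 higher. It stood at 0.86 and 0.88 on the arrays numbered 1 and between 0.11 and 0.52 on the other 6, a difference of 0.47 ± 0.13 (SE; adjusted p = 0.0394). Rps6 was lower by a difference of -0.38 (adjusted p = 0.0464), Rpl21 by one of -0.39 (adjusted p = 0.0481) and Rpl36 by one of -0.52 (adjusted p = 0.0480). For Rpl21 the arrays numbered 1 stood at -0.96 and -0.61, and the other 6 between -0.47 and -0.33. The count was 0 without Neo replicate 2, or HDAC4 replicate 2, 3 or 4. It was 2 without Neo replicate 3, and 4 without Neo replicate 4. The share over all features in these fits is not given, so a loss of calls may not be particular to the members. Fits without an array numbered 1 would rest on 1 such array, and their counts are left out.

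At an unadjusted p under 0.05, 14 members were lower and 3 higher on the arrays numbered 1, against 17.2% of features lower and 19.1% higher. The 14 lower were 12 large-subunit and 2 small-subunit genes, and the 3 higher, Rps2, Rps21 and Rps27l, were all small-subunit. The last of these is a paralogue form, and Rps21 is named for this count after its values were seen. In all 35 of 55 members were lower there, with a median difference of -0.13, which was -0.17 for large-subunit and 0.02 for small-subunit genes. Over all features the median was 0.04. On both arrays numbered 1 in turn, 27 members lay below the mean of replicates 2 to 4 of their own group, 7 above, and 21 went opposite ways. The median difference was -0.22 within Neo and -0.03 within HDAC4, and thus larger within Neo. This contrast is between arrays and not between conditions, and no label says how the arrays numbered 1 were made.

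**Figure D5:**
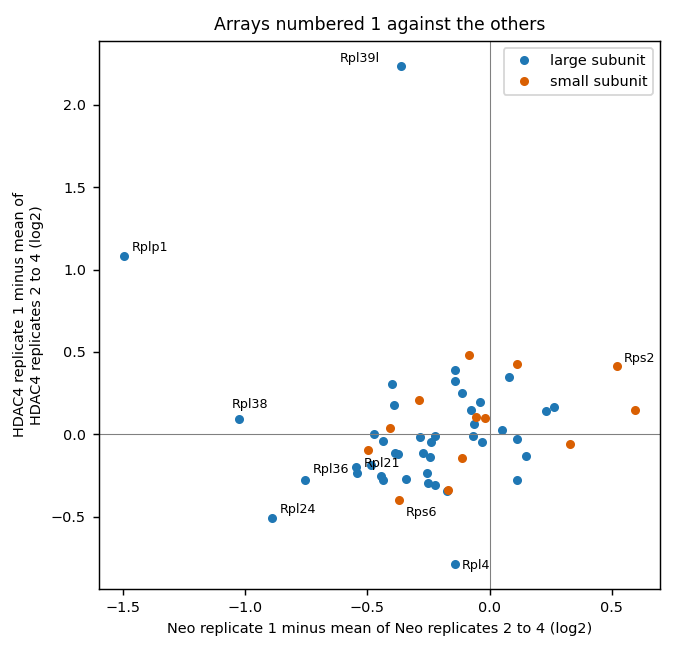
Difference of the replicate 1 array from the mean of replicates 2 to 4, within Neo (horizontal) and within HDAC4 (vertical), log2, for each tested ribosomal protein gene. The lower left part of the plot holds 27 genes, 23 of the large and 4 of the small subunit; Rps2 lies at the upper right, and Rpl39l at the top.

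Other markers moved with the replicate number as well. Of the 8 tested myoblast and proliferation markers, 4 were called higher on the arrays numbered 1, Cdk1, Mcm5, Top2a and Pcna. Over all features 9.97% were called higher there. Ccnd1, Id3 and Mki67 had differences of 0.30, 0.06 and 0.04 and Myf5 one of -0.19, and none of these was called. The ratios of the 7 myoblast markers with values on all arrays were summed and put on the log2 scale. The sum was -0.11 on Neo replicate 1 and between -0.68 and -0.50 on the other Neo arrays. In HDAC4 it was 0.16 on replicate 1 and between -0.67 and -0.48 on the others. Such a sum is not an abundance and is weighted to genes with high ratios. The median ratio of the same genes was -3.12 on Neo replicate 1 and between -3.68 and -3.61 on the other Neo arrays. It was -2.67 on HDAC4 replicate 1 and between -3.83 and -3.61 on the others. Pax7 had no value. Of the 7 tested myotube markers, 6 were higher and 1 lower on the arrays numbered 1, with a median difference of 0.33 and 0 called. The part of either marker list in the differences of the ribosomal protein genes was not tested. With replicate 1 as a term, 0 members were called between HDAC4 and Neo, against 0.624% of features. With the replicate number as a block 0 were called too, against 0.061%. Without both arrays numbered 1, Rpl39l was the 1 called, 5 members were lower at an unadjusted p under 0.05, against 9.84% of features, and the median change over members was -0.05.

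Genes around the ribosome gave no call between HDAC4 and Neo either, where 0.115% of all features were called. At that share, the lack of calls in lists of this size says little about them. Of 30 tested genes of ribosome biogenesis and RNA polymerase I, 17 were higher and 13 lower with a median change of 0.07. Bysl, needed for small-subunit assembly, was at 0.30 ± 0.13 (SE; adjusted p = 0.672 in limma), and the nucleolar genes Nop56 and Bop1 were at 0.23 and 0.22. The 21 tested translation factors had 10 higher and 11 lower with a median of -0.0023. Their smallest p belonged to Naca at -0.20, Eif3c at 0.16 and Eef1a2, the elongation factor form of muscle and neurons, at 0.56. Eef1a2 had no value on HDAC4 replicate 1 and stood at -0.01 on Neo replicate 1. It lay between 1.86 and 2.37 on Neo replicates 2 to 4 and between 1.65 and 2.76 on HDAC4 replicates 2 to 4. With a replicate 1 term its adjusted p in limma was 0.985. Of 6 tested S6 kinase and mTORC1 genes 4 were higher and 2 lower, with a median of 0.07 (Tsc2 0.17, Rptor 0.12 and Rheb 0.07). Fau, a ribosomal protein gene whose symbol lies outside the rule, had a change of -0.13.

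The 70 tested genes of the mitochondrial ribosome, a separate machine that translates the mitochondrial genome, split evenly at 35 higher and 35 lower. Their median change was -0.0084, beside 0.01 for the cytosolic genes. Mrpl41 had the smallest p, with a change of -0.67 ± 0.25 (SE; adjusted p = 0.599 in limma) and no value on HDAC4 replicate 2, followed by Mrps6 at 0.27 and Mrps18b at 0.31. Neither list was tested as a set, and no difference between the lists is claimed.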

How the data were processed

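Log2 ratios of 2-colour arrays, 1 value for each probe on each of 8 arrays, are what the authors deposited. Per the labels, cells were in Cy5 and the reference in Cy3 throughout, 10 µg of RNA went through DNase treatment, and the reference is named as murine liver. Of the steps before deposit, background correction, normalization, software and build were not given in the sources used here. Direction and a reference floor of 10 units (10 times the ratio a whole number within 0.001) were inferred from the values. The annotation listed 19380 probes, 18976 of them with 1 gene. Symbols were updated and starts taken from RefSeq tables of GRCm38.p6.

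Each array was centred on its median, probes of a gene were averaged, other probes stayed features of their own, and at least 3 values per group were required (14750 features). HDAC4 was compared with Neo by limma 3.58.1 in R 4.3.3 (lmFit, eBayes), with Benjamini-Hochberg adjustment over all features at 0.05. Single genes had an exact two-sided permutation test. Sequences and figures were made with Python 3.11.15. The fit was tested on simulated data. Precision is limited by the number of arrays.

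The members, lists and tests were chosen with earlier results of these data known. Named genes were members called in the planned fit or with a replicate 1 term, the 5 most positive and 5 most negative changes, the 3 highest and 3 lowest levels, the paralogue forms with their canonical genes, and members with special roles. In the other lists the 3 smallest p were named. Alternatives changed the centring, the filter, the averaging of probes, the floor probes and the arrays used. Same-numbered arrays had correlated deviations from their group means (0.52, 0.30, 0.19 and 0.11 for numbers 1 to 4 over 13108 features, limit 0.1). Some differently numbered pairs passed that limit too, such as Neo replicate 2 with HDAC4 replicate 4 (0.25) and Neo replicate 3 with HDAC4 replicate 4 (0.22). The limit therefore sets apart number 1 alone and does not show that numbers 2 to 4 pair the arrays.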

Additional observations from a re-analysis of the deposited data

Results flagged for a closer look

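In 7 of the 64 groups of 4 arrays examined, 1 array stood far from the other 3, by a gap beyond Dixon's 95% critical value. Chance flags about 1 group in 20. In HDAC4 these were Rps6 at -0.54 on replicate 1, Rpl13 at -0.11 on replicate 1, Rplp2 at -0.062 on replicate 1 and Rps16 at -0.62 on replicate 3. In Neo they were Rpl22 at -0.078 on replicate 1, Rpl11 at -0.029 on replicate 1 and Rpsa at 0.98 on replicate 4. Of the 7 values, those of Rps16, which was the lowest of its 8 arrays, and of Rpsa were not on an array numbered 1.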

How the results depend on the processing

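The number of members called between HDAC4 and Neo was 0 in limma under every alternative except without both arrays numbered 1, where it was 1, and without HDAC4 replicate 1 (range 0 to 1 with 1 array left out). At an unadjusted p under 0.05 the planned fit gave 1 member and 1082 features. The count over all features moved from 17 to 0 without probes at the reference floor (776 at an unadjusted p under 0.05), 9 with the replicate block, 92 with a replicate 1 term and 305 without both arrays numbered 1, and from 0 to 65 with 1 array left out. The replicate block changed no call among members. Adding the 22 same-symbol probes gave 75 tested genes or probes and 0 called. The small-subunit median was -0.051 without both arrays numbered 1. The 4 members called on the arrays numbered 1 became 1 with quantile normalization, 1 with at least 2 values and 8 without floor probes. With each probe on its own the count was 19. Those are probes and not genes, in a setting with 118 tested. With 1 array of replicates 2 to 4 left out the count was 0 to 4. The shares over all features in these alternatives are not given, so the counts show no gain or loss particular to the members. Same-symbol probes, canonical genes alone and medians over probes were alternatives chosen after seeing the data. The cause of these moves was not tested.

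Signs near 0 turned in places. The median over all members was -0.0026 with quantile normalization, -0.0070 with each probe on its own and -0.0086 with medians over probes. Rps27 was -0.0019 centred on probes present on all 8 arrays and -0.0052 with quantile normalization. Rpl17 was -0.12 without floor probes and -0.11 with probes centred first, and Rpl10 was 0.011 with probes centred first. Without both arrays numbered 1, Rps27 was -0.12, Rpl38 -0.074, Rplp2 -0.019, Rpsa -0.020, Rps3 0.0061, Rps19 -0.051 and Rpl13a -0.049. With 1 array left out the ranges were -0.026 to 0.18 for Rpl21, -0.051 to 0.33 for Rpl38, -0.067 to 0.054 for Rps27, -0.075 to 0.12 for Rps19, -0.0052 to 0.17 for Rpl13a, -0.60 to 0.12 for Rplp1, -0.053 to 0.077 for Rpl17, -0.043 to 0.093 for Rplp2, -0.023 to 0.23 for Rps2, -0.0063 to 0.23 for Rps27l and -0.17 to 0.016 for Rpl10. Without a sign change, the ranges were -0.24 to -0.090 for Rpl22l1, -0.19 to -0.052 for Rpl22, -0.23 to -0.081 for Rpl7, -0.19 to -0.0070 for Rpl3 and -0.23 to -0.0094 for Rps3. None of these genes was called in any of those fits.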
